A study of Mus musculus with 8 samples.

Results

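The results describe how the transcriptome of the stomach of Lgals8-null mice differed between 8 and 3 weeks of age. All genes of the count table were compared in the 4 knockout libraries of a series of 8: 2 libraries from Lgals8-null stomach at 8 weeks and 2 from Lgals8-null stomach at 3 weeks. The other 4 libraries, 2 from wild-type C57BL/6J stomach at 8 weeks and 2 at 3 weeks, serve here as the measure of the same age interval with the gene intact. Polyadenylated RNA was read from both ends, and no treatment is named. The labels do not give the strain of the null mice, how the allele was made, the sex of the mice, the region of stomach taken or whether libraries of a group came from separate animals. The p-values therefore measure the spread between these samples, which may be technical.

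Galectin-8 is a secreted and cytosolic lectin that binds beta-galactoside glycans on integrins and other surface glycoproteins, and on damaged endosomes it recruits the autophagy machinery. The mouse stomach has a squamous forestomach and a glandular part, whose pits and glands hold surface mucous, mucous neck, parietal, chief and endocrine cells. Around weaning the diet changes from milk to solid food, and the milk-clotting protease chymosin gives way to the pepsinogens of the adult gland.

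Depth was 69150262 and 65170447 counts in the 8-week and 68917708 and 61800144 counts in the 3-week knockout libraries, and 58851837 to 80686621 counts in wild type. Levels are CPM, counts scaled to a common library size, after TMM scaling. Lgals8 (chromosome 13, 12439415 to 12464944, GRCm38) was at 1.94 and 4.16 CPM in the 8-week knockout libraries and 1.70 and 2.78 CPM in the 3-week knockout libraries, against 33.9 to 37.6 CPM in the 4 wild-type libraries. No library of the null genotype overlapped a wild-type one, and the knockout level did not pass for age (log2 fold change 0.44, SE 0.38, edgeR adjusted p 0.50).

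Some libraries stood apart in the genes of other tissues or of immune cells. A list score is the mean log2 CPM of the members of a gene list. The interferon response score was 5.46 in 8-week knockout replicate 1 and 3.17 in replicate 2, against 2.39 and 2.64 in the 3-week knockout libraries. Scores of T and NK cells were 0.73 and -1.51 at 8 weeks, against -1.60 and -1.49 at 3 weeks. These scores place 8-week knockout replicate 1 above the other knockout libraries. The squamous forestomach score was 1.97 and 3.15 at 8 weeks, against 4.86 and -0.91 at 3 weeks, and the hepatocyte score was 2.28 and 4.16 at 8 weeks, against 1.22 and 5.52 at 3 weeks. In both lists the 3-week knockout pair spanned the 8-week pair, with 3-week replicate 1 rich in squamous and replicate 2 in hepatocyte transcripts. The wild-type pairs were as uneven in squamous transcripts, at -1.85 and 5.28 at 8 weeks and 4.89 and -1.65 at 3 weeks. In whole tissue, fewer cells of a type and less RNA per cell cannot be told apart.

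**Figure D1:**
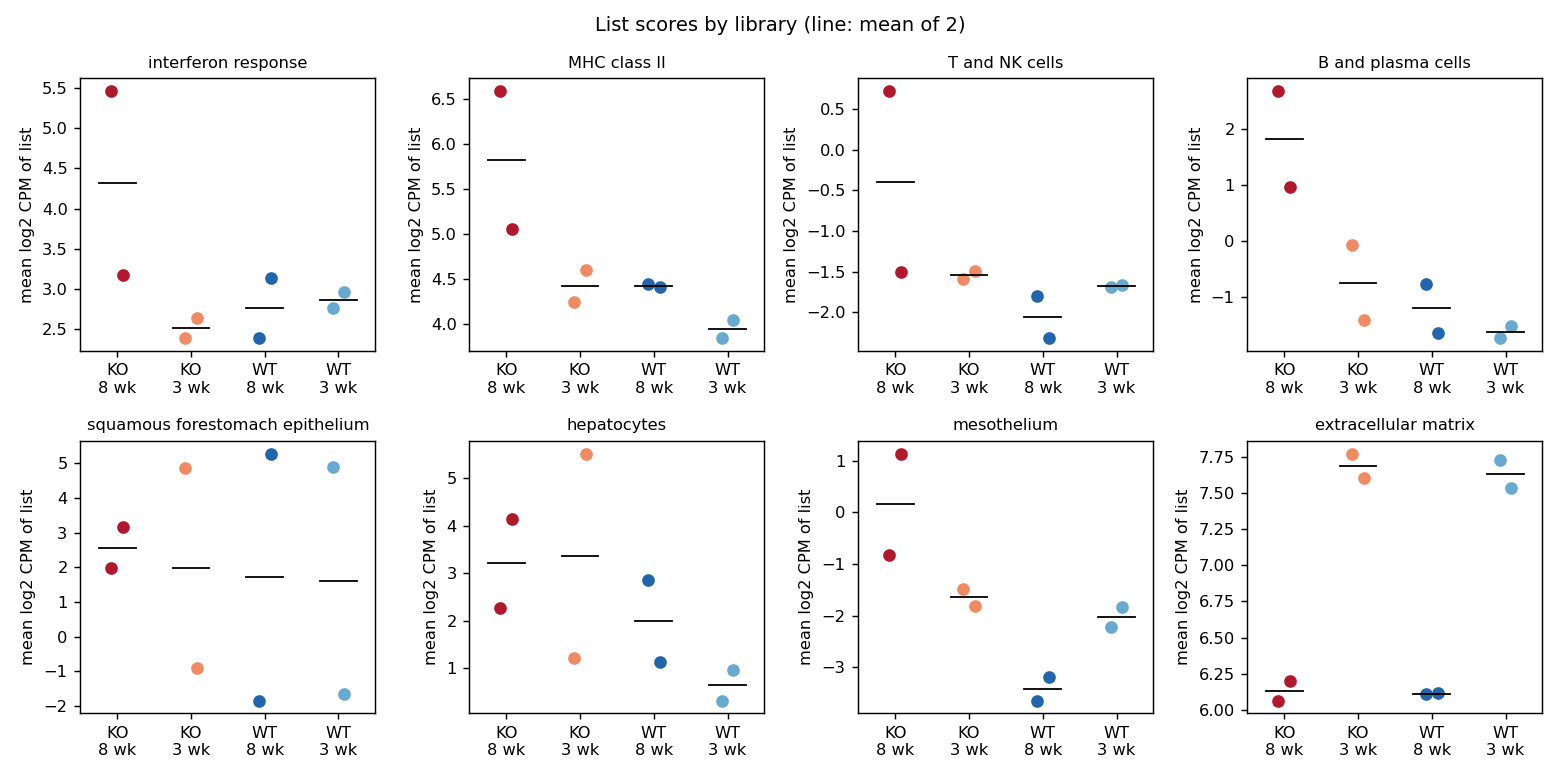
Score of 8 gene lists (mean log2 CPM of the members tested) in each library, by genotype and age; points are libraries and the line is the mean of 2. The interferon, MHC class II and T and NK cell scores are highest in 1 of the 2 knockout libraries at 8 weeks, the squamous score differs most within the 3-week knockout pair and both wild-type pairs, and the extracellular matrix score separates the ages in both genotypes.

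Of 19647 genes tested, 828 were higher (4.21%) and 1287 lower (6.55%) at 8 weeks than at 3 weeks in knockout stomach, at an edgeR adjusted p under 0.05. Together 10.8% of genes were called, 212 of them at least 2-fold higher and 336 at least 2-fold lower. The knockout libraries of the ages did not overlap in 56.6% of all genes tested, so a gap between them is common. All 2115 called genes had such a gap, so it adds nothing to a call. In wild type the same contrast called 1359 genes higher (6.92%) and 1455 lower (7.41%), 14.3% in all. Of the 828 genes higher in knockout, 540 were also called higher in wild type, and of the 1287 lower, 828 were also called lower. The interaction of genotype and age, which tests the difference between the age changes, called 0 genes with edgeR (0%), with 1727 at an unadjusted p under 0.05 where chance gives 982, while DESeq2 called 175. No age change below is therefore stated as different between the genotypes by the edgeR test. The 2 genotypes' values are given side by side.

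The counts depended on the scaling and on which libraries entered. With library totals in place of TMM the calls were 386 higher and 4852 lower, and the median log2 fold change of all genes moved by -0.27. Pgc alone took 13.0% and 15.5% of counts in the 8-week knockout libraries and 8.11% and 8.58% in the 3-week ones. In wild type it took 23.3% and 23.6% at 8 weeks, against 10.1% and 10.1% at 3 weeks. The wild-type changes given below also depend on the scaling, as shown for Ghrl, Sst and Mustn1. DESeq2 called 1972 higher and 1794 lower. A fit of the 4 knockout libraries alone called 66 and 175. Without 3-week knockout replicate 1 or 2 the calls were 59 and 209 or 63 and 239, and without 3-week wild-type replicate 1 or 2 they were 361 and 646 or 358 and 643. Without 8-week knockout replicate 1 or 2 they were 1475 and 1333 or 1462 and 1546. Of 97 genes named below by rule and called, 17 lost the call with library totals, all of which rose under TMM: Xbp1, Clic6, Vegfb, Gcnt1, Gcnt3, B3gnt3, Lpl, S100a8, Lgalsl, Ctsd, Hexa, Ctsb, Cox5a, Manf, Nr1d2, Npas2 and Aldh3a1. With no filter on low counts Cym, Dmbt1, Duoxa2, Jchain, Lyz2, Manf, Il33 and Chac1 lost it, and 37 of the 97 passed in the fit of the knockout libraries alone. Among genes named by rule and not called under TMM, Rab3d, Actn3, Prph, Hbb-bs, Egr1, Adh7, Gstm2, Gstm7 and Macrod1 were called lower with library totals. Changes below are relative to TMM, under which the median over all genes tested was 0.01.

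The digestive secretions of the gland included some of the largest changes in both directions. In the list of gastric digestive secretions and chief cells, 3 of 9 tested members were higher at 8 weeks, 2 were lower and 4 did not pass, while with library totals 2 were higher and 3 lower. Cym, which encodes the milk-clotting protease chymosin, was at 190 and 18.4 CPM in the 8-week knockout libraries, against 27704 and 32594 CPM in the 3-week knockout libraries. On the log2 scale the 8-week replicates of Cym differed from each other by more than the 3-week ones. Its log2 fold change was -8.18 (SE 1.6, edgeR adjusted p 0.045), and in wild type it was at 52.4 and 12 CPM at 8 weeks, against 25000 and 36063 CPM at 3 weeks. Pga5, a pepsinogen A gene, was also lower, at 158 and 239 CPM at 8 weeks, against 632 and 732 CPM at 3 weeks (log2 fold change -1.78, SE 0.20, adjusted p 0.0042).

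Pgc, the gene for pepsinogen C and the most abundant transcript of every library, was at 131885 and 159512 CPM in the 8-week knockout libraries, against 68360 and 73021 CPM in the 3-week ones. It was 2.06-fold higher at 8 weeks (log2 fold change 1.04, SE 0.15, edgeR adjusted p 0.0072). In wild type Pgc was at 307299 and 304338 CPM at 8 weeks, against 88650 and 89881 CPM at 3 weeks, a log2 fold change of 1.78 (adjusted p 0.00094). The interaction was -0.73 (SE 0.21, unadjusted p 0.0081, adjusted p 0.53). Chia1 (chromosome 3, 106113229 to 106132120), the gene for acidic mammalian chitinase, was at 10018 and 13279 CPM at 8 weeks, against 358 and 550 CPM at 3 weeks. That is 25.7-fold higher (log2 fold change 4.68, SE 0.25, adjusted p 0.00025), and the wild-type log2 fold change was 4.72. All 4 knockout libraries lay below the wild-type libraries of their age, and the interaction was -0.04 (SE 0.30).

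The promoters of Pgc and Cym are shown because these aspartic protease genes changed in opposite directions. Each is the 250 bases before the RefSeq start (GRCm38.p6), 5′ to 3′ on the gene's strand, with the TATAAA motif in capitals: Pgc at chr17:47726592-47726841 on the plus strand and Cym at chr3:107221733-107221982 on the minus strand.
Pgc: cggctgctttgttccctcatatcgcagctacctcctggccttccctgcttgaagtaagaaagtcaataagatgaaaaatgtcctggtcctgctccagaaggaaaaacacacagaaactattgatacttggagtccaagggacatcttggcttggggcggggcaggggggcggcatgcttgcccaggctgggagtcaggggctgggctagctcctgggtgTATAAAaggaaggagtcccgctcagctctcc
Cym: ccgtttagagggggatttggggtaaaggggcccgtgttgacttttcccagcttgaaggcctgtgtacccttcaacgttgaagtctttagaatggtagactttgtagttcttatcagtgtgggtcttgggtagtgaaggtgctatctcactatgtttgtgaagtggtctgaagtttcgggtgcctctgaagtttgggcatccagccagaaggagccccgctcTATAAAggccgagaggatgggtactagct
The TATAAA motif began 31 bases before the start in Pgc and 29 bases before it in Cym. GATAA, the core of the GATA factor motif, was absent from the Pgc window and occurred once in Cym, on the antisense strand, 141 bases before the start. On either strand, 12.4% of 32851 RefSeq promoter windows held TATAAA and 22.6% held GATAA.

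The rest of the chief cell list changed less. Xbp1, a transcription factor of secretory cells, was at 349 and 345 CPM at 8 weeks, against 262 and 253 CPM at 3 weeks, and was higher (log2 fold change 0.43, SE 0.086, edgeR adjusted p 0.021). Bhlha15, the gene for MIST1, which organises the secretory machinery of mature chief cells, was at 36.4 and 43.8 CPM at 8 weeks, against 43.3 and 36.2 CPM at 3 weeks in knockout. The knockout ages overlapped (log2 fold change 0.01, adjusted p 0.97), while in wild type Bhlha15 was at 77.9 and 107 CPM at 8 weeks, against 52.8 and 54.7 CPM at 3 weeks (0.78, adjusted p 0.022). Its interaction was -0.77 (SE 0.23, unadjusted p 0.013, adjusted p 0.53). Gif, the gene for intrinsic factor, which mouse chief cells make, had a log2 fold change of 0.34 (adjusted p 0.22) in knockout and 0.87 (adjusted p 0.014) in wild type. The small GTPase genes Rab3d (-0.20, adjusted p 0.22) and Rab26 (1.87, adjusted p 0.090) did not pass, and Lipf had too few counts to be tested. Chia1 and Pga5 passed in each of the 8 leave-one-out fits, in which 1 of the 8 libraries at a time is left out. Pgc missed the threshold without either 3-week knockout library, Xbp1 without any of the 3-week libraries of either genotype, and Cym also without 8-week knockout replicate 2.

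**Figure D2:**
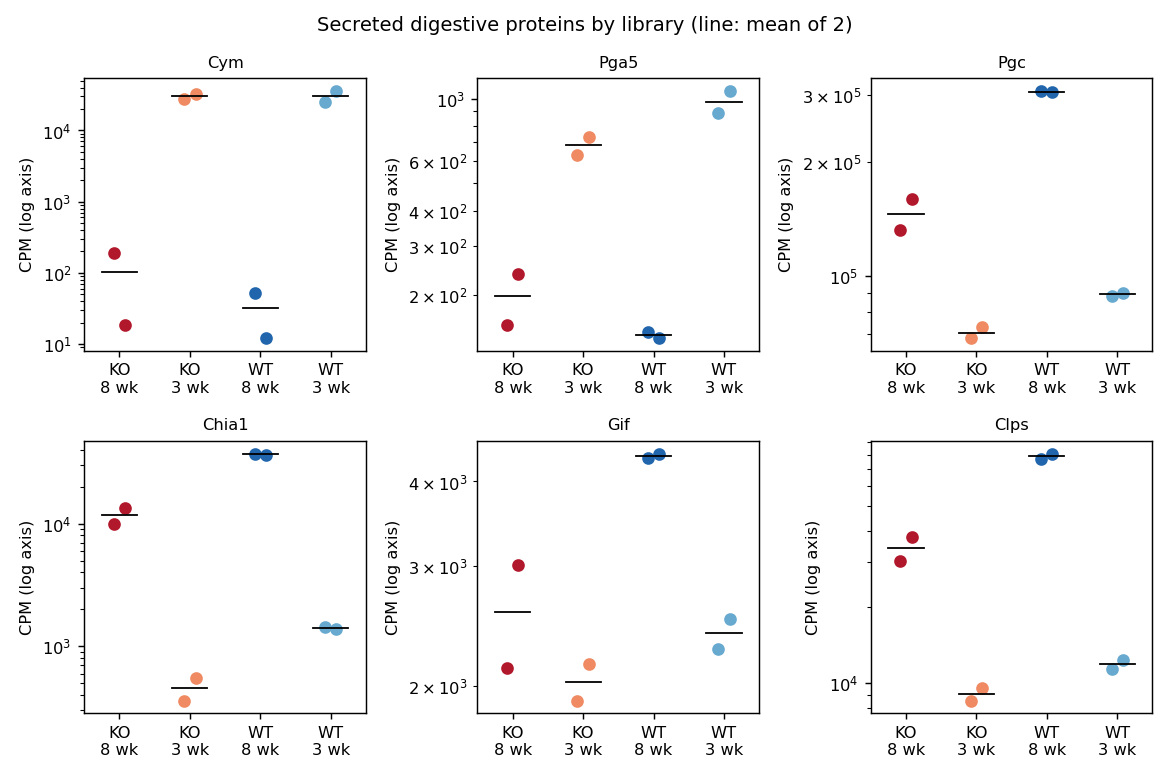
CPM (log axis) of 6 secreted proteins of the gland in each library; points are libraries and the line is the mean of 2. Cym and Pga5 are lower at 8 weeks than at 3 weeks in both genotypes, Pgc, Chia1 and Clps are higher, and the knockout values of Gif overlap between the ages.

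Genes of pancreatic type were measured in the same libraries. Clps, the gene for colipase, was at 30478 and 37995 CPM in knockout at 8 weeks, against 8502 and 9548 CPM at 3 weeks (log2 fold change 1.92, SE 0.15, edgeR adjusted p 0.00091). Try10, a trypsinogen gene, was at 16.2 and 23.8 CPM at 8 weeks, against 0.551 and 0.620 CPM at 3 weeks, the largest rise among the genes named for size (log2 fold change 5.09, SE 0.28, adjusted p 0.00034). Try4 (2.88, adjusted p 0.0020) and Try5 (3.29, adjusted p 0.041) were also higher. Reads of such near-identical trypsinogen genes could be divided between copies by the counting, so their single values are uncertain. Clps, Try4 and Try5 were the 3 called of 10 tested in the pancreatic acinar list. Other acinar markers were at or near 0: Amy2a5 had 0 counts in all 8 libraries, Cpa1 had 0 and 2 counts at 8 weeks and 4 and 4 at 3 weeks, and Prss2 reached no more than 0.0316 CPM in a knockout library. Clps, Try10 and Try4 passed in each of the 8 leave-one-out fits, and Try5 in 2, those without 3-week wild-type replicate 1 or 2.

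Surface mucous cells line the pits of the stomach. Of their 11 listed genes 5 were higher at 8 weeks, 0 lower and 6 did not pass. Gkn1, the gene for the secreted protein gastrokine 1, was at 26541 and 24409 CPM in the 8-week knockout libraries, against 10055 and 10745 CPM in the 3-week ones. Its log2 fold change was 1.29 (SE 0.13, edgeR adjusted p 0.0028). Psca, a cell-surface protein of the pit epithelium, was at 10094 and 10046 CPM at 8 weeks, against 4122 and 4169 CPM at 3 weeks (1.28, SE 0.093, adjusted p 0.00070). Gkn2 (1.23, adjusted p 0.0021), the trefoil peptide gene Tff1 (1.12, adjusted p 0.0021) and the gel-forming mucin gene Muc5ac (1.21, adjusted p 0.0064) were higher as well. Wild type had log2 fold changes of 1.01 for Gkn1, 1.55 for Psca, 1.09 for Gkn2, 0.93 for Tff1 and 2.06 for Muc5ac. The list median was 0.28, and 0.01 with library totals. Psca, Tff1, Gkn2 and Gkn1 passed in each of the 8 leave-one-out fits, and Muc5ac failed without either 3-week knockout library.

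The mucous neck list held 1 gene that rose and 1 that fell among 12, and with library totals 1 that rose and 3 that fell. Under TMM the share called over all genes tested was 10.8%. Tff2, the trefoil peptide of neck cells, was at 1401 and 1226 CPM at 8 weeks, against 824 and 680 CPM at 3 weeks (log2 fold change 0.80, SE 0.12, edgeR adjusted p 0.0082). Dmbt1, a mucosal scavenger-receptor glycoprotein, was at 64.1 and 35.1 CPM at 8 weeks, against 158 and 153 CPM at 3 weeks (-1.65, SE 0.35, adjusted p 0.040). Of 15 tested genes for mucin-type glycosylation, whose products galectins can bind, 4 rose: the sialyltransferase gene St3gal6 (1.26, adjusted p 0.016), the branching enzyme genes Gcnt1 (0.74, adjusted p 0.030) and Gcnt3 (0.50, adjusted p 0.034), and B3gnt3 (0.47, adjusted p 0.049), which extends O-glycans. The glycosylation median was 0.18 and turned to -0.09 with library totals, where 1 gene was higher and 3 were lower. That list, without 8-week knockout replicate 1, had 1 higher and 1 lower, and without replicate 2 it had 7 higher and 0 lower. Tff2 missed the threshold without 3-week knockout replicate 2, the other genes of this paragraph without either 3-week knockout library. Dmbt1 also missed it without 8-week knockout replicate 2 or either 8-week wild-type library. St3gal6, Gcnt1 and B3gnt3 missed it without 8-week knockout replicate 1, and Gcnt1, Gcnt3 and B3gnt3 without either 3-week wild-type library. B3gnt3 missed it without either 8-week wild-type library too.

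Parietal cells secrete acid through the proton pump. Of 17 listed genes 3 were higher and 0 lower: Slc26a9, a chloride transporter gene, at 293 and 317 CPM at 8 weeks, against 202 and 204 CPM at 3 weeks (log2 fold change 0.59, SE 0.083, edgeR adjusted p 0.0072), Clic6 (0.55, adjusted p 0.029) and the growth factor gene Vegfb (0.45, adjusted p 0.031). The share called over all genes tested was 10.8%. The pump subunit genes did not pass. Atp4a, the catalytic subunit, was at 9995 and 12071 CPM at 8 weeks, against 10247 and 10205 CPM at 3 weeks (0.11, adjusted p 0.64). Atp4b, the other subunit, was at 5367 and 6772 CPM at 8 weeks, against 4312 and 4092 CPM at 3 weeks (0.53, adjusted p 0.056). The ages overlapped for Atp4a and not for Atp4b, as they did not in 56.6% of all genes tested. The median of the list was 0.11 and turned to -0.16 with library totals, where 1 gene was higher and 3 were lower. Without 8-week knockout replicate 1 the list had 5 higher and 0 lower, and without replicate 2 it had 3 higher and 2 lower. All 3 calls were lost without either 3-week knockout library, those of Clic6 and Vegfb also without either 3-week wild-type library, and that of Vegfb without 8-week knockout replicate 2.

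Of 20 listed genes of endocrine cells 6 were lower at 8 weeks, 0 higher and 14 did not pass, with a median log2 fold change of -0.49. Isl1, a LIM homeodomain transcription factor of endocrine cells, was at 9.69 and 8.54 CPM in the 8-week knockout libraries, against 23.6 and 22.6 CPM in the 3-week ones. It was 2.53-fold lower (log2 fold change -1.34, SE 0.11, edgeR adjusted p 0.0012), with -0.74 in wild type. Among the peptide hormones, Gcg, the proglucagon gene, was at 0.734 and 1.93 CPM at 8 weeks, against 6.41 and 6.38 CPM at 3 weeks (-2.26, SE 0.39, adjusted p 0.015). Pyy was at 0.675 and 0.601 CPM at 8 weeks, against 2.90 and 2.11 CPM at 3 weeks (-1.97, SE 0.30, adjusted p 0.0090). Iapp, the amylin gene, was also lower (-3.45, adjusted p 0.048), at no more than 0.358 CPM in a knockout library. Gast, the gastrin gene of the antrum, was at 19.4 and 0.222 CPM at 8 weeks, against 21.5 and 7.82 CPM at 3 weeks. The ages overlapped, 8-week replicate 2 was the lowest of the 4 libraries, and the part of this in the endocrine values was not tested. Isl1 passed in each of the 8 leave-one-out fits, Pyy failed without 3-week knockout replicate 1, and Gcg without either 3-week knockout library. Without 3-week knockout replicate 1 or 2 the list had 1 or 2 genes lower and 0 higher. Without 8-week knockout replicate 1 it had 2 higher and 4 lower, and without replicate 2 it had 1 higher and 6 lower.

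Ghrl and Sst, which encode the hormones ghrelin and somatostatin, were called in opposite directions in the genotypes. Ghrl was at 668 and 795 CPM in knockout at 8 weeks, against 1013 and 1029.6 CPM at 3 weeks, and at 1448 and 1359 CPM in wild type at 8 weeks, against 1045 and 1096 CPM at 3 weeks. The log2 fold changes were -0.48 (SE 0.10, edgeR adjusted p 0.026) in knockout and 0.39 (adjusted p 0.041) in wild type. Sst was at 251 and 273 CPM in knockout at 8 weeks, against 325 and 343 CPM at 3 weeks, and at 617 and 546 CPM in wild type at 8 weeks, against 416 and 419 CPM at 3 weeks. Its changes were -0.35 (adjusted p 0.046) and 0.48 (adjusted p 0.013). Mustn1, a small nuclear protein of muscle and bone, also had such calls, at -0.39 (adjusted p 0.029) in knockout and 0.35 (adjusted p 0.034) in wild type.

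For these 3 genes the interaction was -0.87 (Ghrl, unadjusted p 0.00036), -0.83 (Sst, 0.00020) and -0.74 (Mustn1, 0.00033), each with an edgeR adjusted p of 0.526, so the difference did not pass. DESeq2 gave the interaction adjusted p of 4.1e-06 for Ghrl, 1.1e-06 for Sst and 0.0025 for Mustn1. With library totals the wild-type changes turned to -0.17 for Ghrl, -0.08 for Sst and -0.21 for Mustn1, none called, while the knockout changes stayed negative. The knockout calls of all 3 were lost without any of the 3-week libraries of either genotype, that of Sst also without 8-week knockout replicate 1 and that of Mustn1 without 8-week knockout replicate 2. The wild-type call of Ghrl was lost without either 8-week wild-type library (adjusted p 0.15 and 0.082) or any of the 3-week libraries of either genotype (0.090 to 0.27). That of Sst was lost without 8-week wild-type replicate 1 (0.052) or either 3-week wild-type library (0.12 and 0.11). That of Mustn1 was lost with no filter on low counts (0.067), without either 8-week wild-type library (0.093 and 0.11), and without any of the 3-week libraries of either genotype (0.064 to 0.23). The knockout call of Sst was also lost with DESeq2 size factors in edgeR (adjusted p 0.052) and with upper-quartile scaling (0.053). Without 8-week knockout replicate 1 the interaction was -0.72 for Ghrl, -0.74 for Sst and -0.76 for Mustn1. Without 8-week knockout replicate 2 it was -1.0, -0.89 and -0.70. Each of these fits leaves 1 library in that group. With library totals the edgeR adjusted p of the interaction was 0.16 for Ghrl, 0.16 for Sst and 0.18 for Mustn1.

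**Figure D3:**
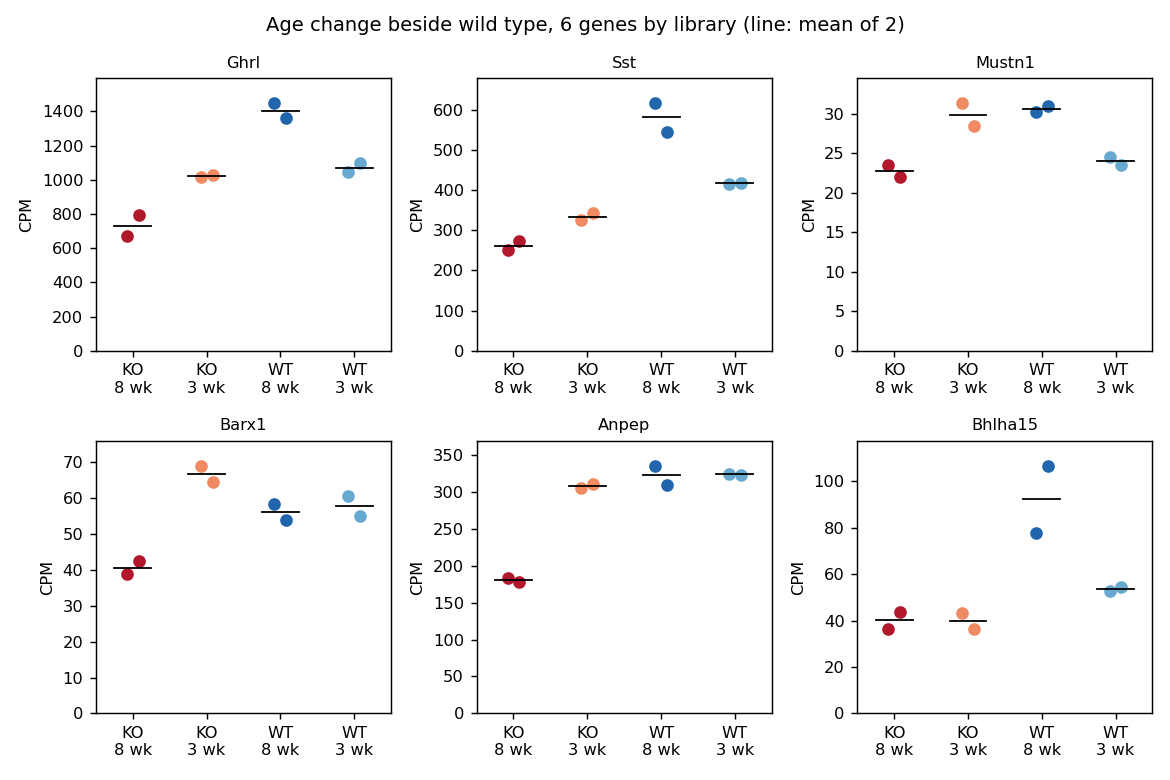
CPM of 6 genes in each library, with axes from 0; points are libraries and the line is the mean of 2. Under TMM, Ghrl, Sst and Mustn1 are lower at 8 weeks than at 3 weeks in knockout and higher in wild type (with library totals the wild-type changes turn to -0.17, -0.08 and -0.21), Barx1 and Anpep are lower at 8 weeks in knockout, and Bhlha15 overlaps between the ages in knockout and is higher at 8 weeks in wild type. In the TMM fit of all 8 libraries, no interaction passed the edgeR adjusted threshold.

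The remaining genes with the smallest interaction p-values all had an edgeR adjusted p of 0.526. Anpep, the gene for aminopeptidase N, was at 184 and 178 CPM in knockout at 8 weeks, against 305 and 311 CPM at 3 weeks, and at 335 and 309 CPM in wild type at 8 weeks, against 324 and 323 CPM at 3 weeks. The knockout fell (log2 fold change -0.77, adjusted p 0.0020), also in each of the 8 leave-one-out fits, and the wild-type change was -0.01 (adjusted p 0.97). Umod, known as the kidney tubule protein uromodulin, was at 3.99 and 2.91 CPM in knockout at 8 weeks, against 0.734 and 0.716 CPM at 3 weeks, while the wild-type libraries held 0.584 to 0.903 CPM. It rose in knockout (2.25, adjusted p 0.0064), and missed the threshold without either 3-week knockout library. Aldh3a1, an aldehyde dehydrogenase gene, rose by 0.45 in knockout (adjusted p 0.026) and by 1.48 in wild type (adjusted p 0.00039), and its knockout call was lost without any of the 3-week libraries. The alcohol dehydrogenase gene Adh7 (-0.12 in knockout, 0.87 in wild type) and the glutathione transferase genes Gstm2 (-0.13, 0.82) and Gstm7 (-0.29, 0.69) did not pass for age in knockout. Neither did Macrod1 (-0.07, 0.52) and Arid3a (0.07, -0.92). With library totals Adh7 (-0.40, edgeR adjusted p 0.029), Gstm2 (-0.40, 0.024), Gstm7 (-0.56, 0.0076) and Macrod1 (-0.35, 0.0090) were called lower in knockout.

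Among other genes that rose most, Egf (chromosome 3, 129677565 to 129755316), which encodes epidermal growth factor, was at 45.1 and 43.6 CPM in knockout at 8 weeks, against 3.79 and 4.48 CPM at 3 weeks. It was 10.7-fold higher, with narrow spread (log2 fold change 3.42, SE 0.14, edgeR adjusted p 0.00020), and the wild-type change was 3.17. Il33, an alarmin cytokine gene, was at 165 and 168 CPM at 8 weeks, against 27.9 and 25.2 CPM at 3 weeks (2.65, SE 0.43, adjusted p 0.021). In wild type it was at 43.2 and 76.7 CPM at 8 weeks, against 17.0 and 8.14 CPM at 3 weeks. B4galnt2, the glycosyltransferase of the Sd(a) antigen, was at 8.15 and 11.0 CPM in knockout at 8 weeks, against 1.63 and 1.64 CPM at 3 weeks (2.55, SE 0.24, adjusted p 0.0020). The homeobox gene Dmbx1 (4.47, adjusted p 0.0072), the lipocalin gene Obp2a (2.67, adjusted p 0.0076), the stress-induced glutathione-degrading enzyme gene Chac1 (2.61, adjusted p 0.032) and the hyaluronan link protein gene Hapln4 (2.43, adjusted p 0.0098) complete the set. Egf and B4galnt2 passed in each of the 8 leave-one-out fits. The other genes missed the threshold without either 3-week knockout library, Il33 and Chac1 also without either 8-week knockout library, and Chac1 without either 3-week wild-type library.

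Epithelial and secretory genes also fell. Muc5b, a gel-forming mucin gene best known from airway, was at 0.793 and 1.66 CPM in knockout at 8 weeks, against 30.7 and 26.5 CPM at 3 weeks (log2 fold change -4.55, SE 0.51, edgeR adjusted p 0.0087). In wild type it was at 1.17 and 3.04 CPM at 8 weeks, against 183 and 212 CPM at 3 weeks. Bpifb1, a secreted lipid-binding protein of mucosal defence, was at 351 and 192 CPM in knockout at 8 weeks, against 2326 and 3124 CPM at 3 weeks (-3.33, SE 0.36, adjusted p 0.0059). Both genes were chosen among those whose knockout ages did not overlap, so that gap is not a separate result. Cd177, a surface glycoprotein known from neutrophils (-2.77, adjusted p 0.00043), and Acot1, an acyl-CoA thioesterase gene (-2.73, adjusted p 0.0020), fell as well. Of 9 tested genes of epithelial host defence, Lyz1 (1.5, adjusted p 0.014) and the dual oxidase maturation factor gene Duoxa2 (2.17, adjusted p 0.018) were higher and 7 did not pass. Bpifb1, Cd177 and Acot1 passed in each of the 8 leave-one-out fits. Muc5b, Lyz1 and Duoxa2 missed the threshold without either 3-week knockout library, and Duoxa2 without either 3-week wild-type library.

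Extracellular matrix genes, which encode the fibres of connective tissue, formed the list with the largest share of members called. Of 18 genes 16 were lower, 0 higher, and the median log2 fold change was -1.60. Col1a1, a chain of type I collagen, was at 449 and 443 CPM in knockout at 8 weeks, against 1652 and 1540 CPM at 3 weeks (log2 fold change -1.84, SE 0.098, edgeR adjusted p 0.00025). Eln, the elastin gene, was at 44.0 and 61.3 CPM at 8 weeks, against 483 and 395 CPM at 3 weeks (-3.06, SE 0.18, adjusted p 0.00040). The wild-type changes were -1.84 for Col1a1 and -2.90 for Eln. Fbn2, the gene for fibrillin 2 of early elastic fibres, fell by 3.07 on the log2 scale (adjusted p 0.0059). Col5a1 (-1.79), Col5a2 (-1.42) and the matricellular gene Postn (-1.67) each had an adjusted p of 0.00025, and the secreted metalloprotease genes Adamts17 (-2.90, adjusted p 0.0016) and Adamts12 (-2.51, adjusted p 0.0065) fell too. The proteoglycan genes Dcn (-0.04, adjusted p 0.85) and Lum (-0.61, adjusted p 0.072) did not pass. Only Fbn2 and Adamts12 of the genes called here missed the threshold in a leave-one-out fit, that without 3-week knockout replicate 1.

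Imprinted and early postnatal growth genes were lower in 5 of 13 tested members, 0 were higher and 8 did not pass. H19, an imprinted noncoding RNA, was at 0.764 and 0.949 CPM in knockout at 8 weeks, against 15.2 and 14.7 CPM at 3 weeks (log2 fold change -4.12, SE 0.28, edgeR adjusted p 0.00053). The wild-type change was -3.80. Plagl1 (-1.05, adjusted p 0.0029), a zinc finger gene, Igf2bp3 (-2.86, adjusted p 0.0035), which binds RNA, Grb10 (-0.92, adjusted p 0.020), which restrains insulin signalling, and Mest (-1.48, adjusted p 0.021) were the other members called. Of 18 cell cycle genes 11 were lower and 0 higher, with a median of -0.65. Foxm1, a transcription factor of dividing cells, was at 5.90 and 6.33 CPM at 8 weeks, against 13.3 and 12 CPM at 3 weeks (-1.05, SE 0.13, adjusted p 0.0048). The replication helicase genes Mcm7 (-0.68, adjusted p 0.0059), Mcm6 (-0.70, adjusted p 0.0070) and Mcm4 (-0.63, adjusted p 0.0093) fell less than Foxm1 in these estimates. H19, Plagl1 and Igf2bp3 passed in each of the 8 leave-one-out fits. Foxm1 and Mcm7 failed without 3-week knockout replicate 1, Mcm6 without replicate 2, and Grb10, Mest and Mcm4 without either. The cell cycle list had 3 or 2 genes lower without 3-week knockout replicate 1 or 2.

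Signals that pattern the stomach changed in both directions under TMM, with 3 genes higher, 7 lower and 8 not passing of 18. With library totals 1 was higher, Foxa3 (log2 fold change 0.54), and 12 were lower, with a list median of -0.77. Bmp4, a ligand made by the mesenchyme, was at 15.2 and 15.7 CPM in knockout at 8 weeks, against 34.4 and 38.4 CPM at 3 weeks (log2 fold change -1.24, SE 0.14, edgeR adjusted p 0.0038). Wnt5a, another ligand gene, fell by 0.79 on the log2 scale (adjusted p 0.0076). The hedgehog ligand gene Ihh (-0.52, adjusted p 0.035), the receptor gene Ptch1 (-1.39, adjusted p 0.017) and the effector gene Gli1 (-1.44, adjusted p 0.0084) were all lower. Among the transcription factors, Barx1, which specifies stomach through its mesenchyme, was at 39.0 and 42.4 CPM at 8 weeks, against 69.0 and 64.6 CPM at 3 weeks (-0.72, SE 0.089, adjusted p 0.0047). In wild type Barx1 was at 58.4 and 54.0 CPM at 8 weeks, against 60.6 and 54.9 CPM at 3 weeks (-0.04, adjusted p 0.83), and its interaction of -0.68 had an unadjusted p of 0.00074 and an adjusted p of 0.53. Sox2 fell (-0.86, adjusted p 0.012), and the endodermal factor genes Foxa3 (0.81, adjusted p 0.0077), Gata4 (0.47, adjusted p 0.013) and Foxa2 (0.46, adjusted p 0.020) rose. Bmp4 passed in each of the 8 leave-one-out fits, Barx1 failed without 3-week knockout replicate 1, Wnt5a without replicate 2 and Foxa3 without either. Without 3-week knockout replicate 1 or 2 the list had 0 higher and 3 or 2 lower.

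**Figure D4:**
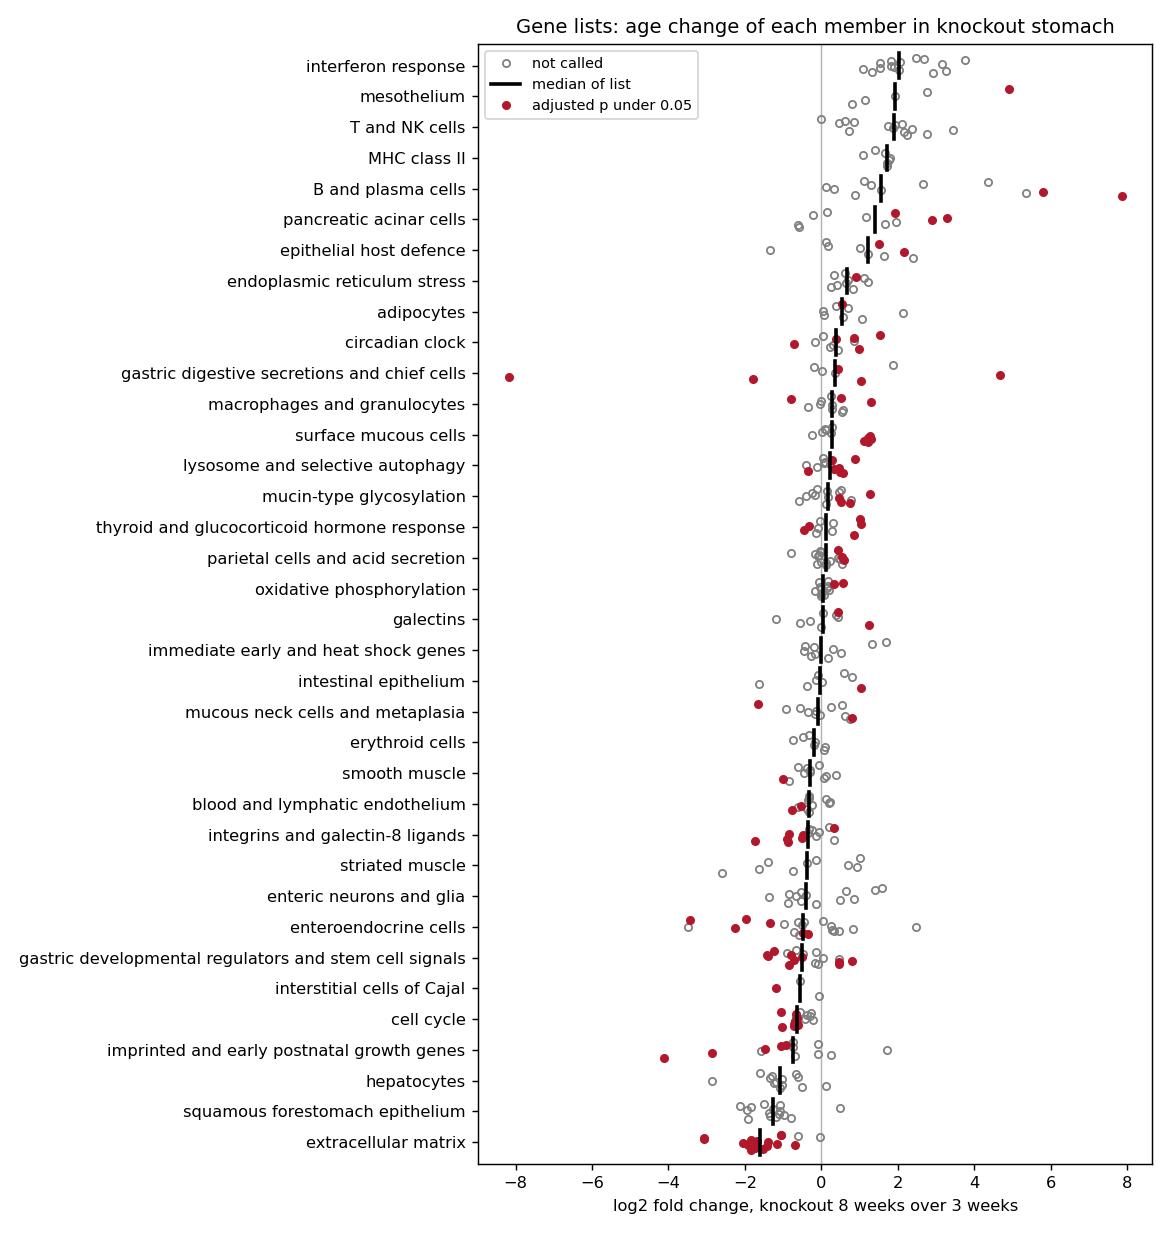
Log2 fold change of each tested member of 36 gene lists, knockout at 8 weeks over knockout at 3 weeks; red points have an edgeR adjusted p under 0.05, open points do not, and bars are list medians. Extracellular matrix genes lie at the low end with a median of -1.60 and 16 of 18 called, and the interferon response list has the highest median, 2.02, with 0 called.

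Surface receptors bound by galectin-8 were followed with the galectins themselves. Of 14 integrin and ligand genes 6 were lower and 1 higher, with a median log2 fold change of -0.34. Itgb3, the beta chain of the vitronectin receptor, was at 14.9 and 14.7 CPM in knockout at 8 weeks, against 26.7 and 26.6 CPM at 3 weeks (-0.85, SE 0.10, edgeR adjusted p 0.0042). Itgb1, the common beta chain, was at 251 and 248 CPM at 8 weeks, against 363 and 331 CPM at 3 weeks (-0.48, adjusted p 0.013). The collagen-binding alpha chain genes Itga2 (-1.74, adjusted p 0.0080) and Itga1 (-0.87, adjusted p 0.014) fell as well, and Lamp1, a lysosomal membrane glycoprotein, was the higher one (0.33, adjusted p 0.034). With library totals this list had 0 higher and 9 lower, so Lamp1 lost its call, and the median was -0.61. Wild type had -0.75 for Itgb3, -0.37 for Itgb1, -2.31 for Itga2 and -0.71 for Itga1. Of 9 tested galectin genes, Lgals2 was at 947 and 837 CPM at 8 weeks, against 360 and 387 CPM at 3 weeks (1.26, SE 0.10, adjusted p 0.0011), and Lgalsl rose by 0.44 (adjusted p 0.0496). The other 7 did not pass, and the galectin median of 0.04 turned to -0.23 with library totals, where 1 gene was higher and 2 were lower. The galectin list, without 8-week knockout replicate 1, had 1 higher and 1 lower, and without replicate 2 its median turned to -0.12 with 3 higher and 0 lower. Itgb3 and Lgals2 passed in each of the 8 leave-one-out fits, Itga2 failed without 3-week knockout replicate 2, and Itgb1 and Itga1 without either 3-week knockout library. Lgalsl passed in 1 of the 8, without 8-week knockout replicate 2.

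Lysosomal and autophagy genes, among which galectin-8 acts at damaged vesicles, rose in 6 and fell in 1 of 13. Gabarapl1, an ATG8 family member, was at 122 and 155 CPM in knockout at 8 weeks, against 75.3 and 76.7 CPM at 3 weeks (log2 fold change 0.87, SE 0.12, edgeR adjusted p 0.0076). The hydrolase genes Ctsb (0.56, adjusted p 0.017), Ctsd (0.47, adjusted p 0.014) and Hexa (0.47, adjusted p 0.016) were higher, and Ctsl was lower (-0.34, adjusted p 0.033). The median of 0.23 turned to -0.04 with library totals, where 1 gene was higher and 3 were lower. All the calls of the list were lost without either 3-week knockout library. Of 14 oxidative phosphorylation genes, Cox7a1 (0.57, adjusted p 0.0062) and Cox5a (0.32, adjusted p 0.034) rose, a share near the 10.8% called over all genes tested. The list median of 0.04 turned to -0.23 with library totals, where 1 gene was higher and 2 were lower. Of 10 genes of endoplasmic reticulum stress, Manf rose (0.90, adjusted p 0.0498) and 9 did not pass, a share near the 10.8% called over all genes tested. Cox7a1 failed without 3-week knockout replicate 2, Cox5a without any of the 3-week libraries, and Manf passed in 2 of 8 such fits, those without 8-week wild-type replicate 1 or 2.

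Steroid, thyroid and clock targets were mixed. Of 10 hormone response genes 3 rose, namely Sgk1, a kinase gene induced by glucocorticoid (log2 fold change 1.02, edgeR adjusted p 0.014), Fkbp5, a glucocorticoid receptor co-chaperone gene (1.05, adjusted p 0.020), and Dio1, a deiodinase gene induced by thyroid hormone (0.85, adjusted p 0.016). Dio1 was at 6.99 and 5.92 CPM in knockout at 8 weeks, against 3.47 and 3.69 CPM at 3 weeks, and at 22.2 and 18.2 CPM in wild type at 8 weeks, against 5.16 and 5.02 CPM at 3 weeks. The wild-type change of Dio1 was 1.99, and the interaction of -1.14 had an unadjusted p of 0.00088 and an adjusted p of 0.53. Nr3c1, the glucocorticoid receptor gene, fell (-0.33, adjusted p 0.022), as did Hr, a nuclear receptor corepressor gene (-0.46, adjusted p 0.031). The median of this list was 0.11 and turned to -0.16 with library totals. Of 11 clock genes 4 were higher, with Ciart (1.53, adjusted p 0.011), Dbp (0.85, adjusted p 0.015), Nr1d2 (0.39, adjusted p 0.017) and Npas2 (0.98, adjusted p 0.033), and Per3 was lower (-0.71, adjusted p 0.048). With library totals 2 clock genes were higher and 2 lower. The hour at which tissue was taken is not given in the labels, so age and hour cannot be told apart for these genes. Sgk1, Dio1, Nr3c1, Hr, Nr1d2, Npas2 and Per3 failed without either 3-week knockout library, Fkbp5, Ciart and Dbp without 3-week knockout replicate 2. Nr3c1, Fkbp5, Nr1d2 and Npas2 also failed without either 3-week wild-type library, Fkbp5 without 8-week knockout replicate 2 and Npas2 without replicate 1.

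The wall and vessels were followed through markers of their cells. Ano1, the chloride channel gene of interstitial cells of Cajal, was at 42.9 and 36.8 CPM in knockout at 8 weeks, against 87.4 and 92.9 CPM at 3 weeks (log2 fold change -1.18, SE 0.18, edgeR adjusted p 0.0097), the 1 called of 3 Cajal cell genes. Of 12 endothelial genes, Cdh5 (-0.77, adjusted p 0.0083) and Tie1 (-0.53, adjusted p 0.019) fell. Of 11 smooth muscle genes, the myosin heavy chain gene Myh11 fell (-1.0, adjusted p 0.019) and 10 did not pass. The summed CPM of that list was 4310 and 6003 in knockout at 8 weeks, against 8128 and 5673 at 3 weeks. Lpl, the lipoprotein lipase gene, was the 1 called of 8 adipocyte genes (0.53, adjusted p 0.043). Of 8 tested intestinal genes Fabp2, a fatty acid binding protein gene, rose (1.04, adjusted p 0.033). Over all genes tested 10.8% were called, and the shares called of the smooth muscle, adipocyte and intestinal lists were near that. Ano1, Cdh5, Tie1, Myh11, Lpl and Fabp2 all missed the threshold without either 3-week knockout library. Myh11 also missed it without either 8-week knockout library, Lpl and Fabp2 without 8-week knockout replicate 1, and Lpl without either 3-week wild-type library.

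Antibody transcripts rose, with replicate 1 of the 8-week knockout pair the higher. Igha, the constant region gene of IgA, was at 544 and 161 CPM in knockout at 8 weeks, against 1.11 and 1.94 CPM at 3 weeks (log2 fold change 7.86, SE 1.0, edgeR adjusted p 0.017). Wild type had 12.1 and 4.47 CPM at 8 weeks, against 0.135 and 0.0251 CPM at 3 weeks. Jchain, the joining chain of polymeric antibody, was at 74.2 and 24.1 CPM in knockout at 8 weeks, against 1.5 and 0.234 CPM at 3 weeks (5.80, SE 1.2, adjusted p 0.043). In both genes the 8-week knockout libraries were above all others. Igha and Jchain were the 2 called of 11 B and plasma cell genes, against 10.8% called over all genes tested. Igha missed the threshold without either 3-week knockout library, and Jchain in each of the 8 leave-one-out fits.

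Of the T and NK cell, MHC class II and interferon response lists, with 14, 7 and 15 members, 0 genes were called. Their median log2 fold changes were 1.90, 1.70 and 2.02, against 0.01 over all genes. Without 8-week knockout replicate 1 the medians were 0.09, 0.73 and 0.67, with 0, 4 and 1 genes called. Without 8-week knockout replicate 2 they were 2.56, 2.30 and 2.67, with 8, 7 and 12 called. Summed CPM of the interferon list was 843 and 190 in knockout at 8 weeks, against 123 and 136 at 3 weeks, and that of the MHC class II list was 1498 and 498 at 8 weeks, against 260 and 336 at 3 weeks. Cxcl9, a chemokine gene induced by interferon, was at 34.9 and 5.11 CPM at 8 weeks, against 1.54 and 1.43 CPM at 3 weeks (3.75, edgeR adjusted p 0.082), and Cxcl10, another, had a change of 2.69 (adjusted p 0.081). Trac, the T cell receptor alpha constant gene, was at 2.06 and 0.538 CPM at 8 weeks, against 0.208 and 0.289 CPM at 3 weeks (2.38, adjusted p 0.069), and the T cell coreceptor gene Cd8a had a change of 3.44 (adjusted p 0.069). The 8-week libraries of Cxcl9 and Trac lay above the 3-week ones, with replicate 1 the higher. The knockout ages were apart in this way, in either direction, in 56.6% of all genes tested. The MHC class II chain genes H2-Eb1 (1.78, adjusted p 0.082) and H2-Aa (1.70, adjusted p 0.086) did not pass either. Of 11 macrophage and granulocyte genes, Lyz2 (1.30, adjusted p 0.025) and S100a8 (0.52, adjusted p 0.034) were higher and the mannose receptor gene Mrc1 was lower (-0.80, adjusted p 0.0056), while with library totals the list had 1 higher and 2 lower. Without either 3-week knockout library these 3 did not pass. Lyz2 and S100a8 also failed without either 3-week wild-type library, and S100a8 without 8-week knockout replicate 1.

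Lists of tissue that a stomach sample can carry along were led by single libraries. Of 15 tested squamous forestomach genes 0 were called, with a median log2 fold change of -1.28 that became 4.40 without 3-week knockout replicate 1. Krt13, a keratin of that epithelium, was at 42.3 and 82.3 CPM in knockout at 8 weeks, against 283 and 1.72 CPM at 3 weeks. The cornified envelope genes Sprr1a (0.48, edgeR adjusted p 0.54) and Ivl (-1.96, adjusted p 0.65) had the smallest p-values of the list. Of 13 hepatocyte genes 0 were called, with a median of -1.10 that became 2.37 without 3-week knockout replicate 2. Alb, the albumin gene, was at 75.2 and 330 CPM at 8 weeks, against 30.4 and 836 CPM at 3 weeks. For Krt13 and Alb the 3-week pair spanned the 8-week pair. Ahsg (-2.87, adjusted p 0.41) and F2 (-1.30, adjusted p 0.47), genes for plasma proteins of liver, did not pass. Lrrn4 was the 1 called of 5 tested mesothelial genes, at 0.352 and 2.45 CPM at 8 weeks, against 0.0489 and 0.0413 CPM at 3 weeks (4.90, edgeR adjusted p 0.026). It missed the threshold without 8-week knockout replicate 2 or any of the 3-week libraries. Of the lists of striated muscle, enteric neurons and glia, erythroid cells, and immediate early and heat shock genes, 0 members were called by edgeR under TMM. With library totals 1, 2, 1 and 4 of their members, in that order, were lower. The list of enteric neurons and glia, without 8-week knockout replicate 1, had 5 genes higher, and without replicate 2 it had 2 lower. The smallest p-values of these lists belonged to the muscle genes Actn3 (-1.39, adjusted p 0.11) and Acta1 (-2.61, adjusted p 0.23), the neuronal gene Prph (-0.85, adjusted p 0.076), the glial gene Gfap (1.59, adjusted p 0.092), the erythroid genes Alas2 (-0.75, adjusted p 0.26) and Hbb-bs (-0.20, adjusted p 0.44), and the early response genes Egr1 (-0.44, adjusted p 0.094) and Junb (0.50, adjusted p 0.098). Hbb-bs shares reads with near-identical globin genes, so its value is uncertain. The part of carried tissue in the other results was not tested.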

How the data were processed

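The authors deposited 1 table of raw counts per Ensembl gene for the 8 libraries. Per the submitters' processing notes the tools were STAR 2.7.9a, bcl2fastq and, from Subread, featureCounts 2.0.3, with build GRCm38. The sources used here do not give the annotation release, strand setting or handling of multi-mapping reads. Per the labels' protocols, total RNA was column-purified and polyadenylated RNA selected. Of 40757 lines, 276 repeated a gene ID with the same counts and were left out, leaving 40481 IDs, of which 40254 were found in GENCODE M21. A total of 26 symbols turned into dates were restored from the ID. Depth was 58851837 to 80686621 counts per library, so the spread between replicates, more than counting error, limits the comparisons.

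In R 4.3.3, edgeR 4.0.16 kept 19647 genes (filterByExpr by group), scaled by TMM and fitted a robust quasi-likelihood model with 1 mean per group to all 8 libraries, with 4 residual degrees of freedom. P-values were adjusted by Benjamini-Hochberg over all genes tested, with a threshold of 0.05; DESeq2 1.42.0 was an alternative. Log2 fold changes are 8 weeks over 3 weeks. Replicate numbers do not pair libraries. In simulated counts of 19233 genes for this contrast, 50 genes were changed at each size, all with a log2 mean CPM of 1 or more. Of the 1.5-, 2-, 4- and 8-fold changes, 8%, 66%, 92% and 94% were found, and 13 of 143 calls were false. The data had more calls and also genes below that level, so these shares may not hold for them.

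The genes and lists were chosen with earlier results of these data known. Named genes are Lgals8, the whole digestive list, from every other list the 4 called members of smallest p (where none was called, 2 as values), the 10 genes that changed most in each direction, and the 10 with the smallest interaction p. Those ranked by change had to be called, to average a log2 CPM of 1 or more and to keep the ages apart, and predicted genes, pseudogenes and antigen receptor segments were passed over. Other named members were chosen after their values were seen. The sequences are from RefSeq.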

Additional observations from a re-analysis of the deposited data

How the results depend on the processing

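The calls for age in knockout, 828 higher and 1287 lower, became 386 higher and 4852 lower with library totals, 1972 higher with the DESeq2 test (1794 lower), and 66 higher and 175 lower in a fit of the 4 knockout libraries alone, which cannot give the interaction. Leaving out each of the 8 libraries in turn gave 59 to 1475 genes higher, 209 to 1546 lower and 0 to 419 for the interaction; the DESeq2 test called 175 for the interaction, against 0 with edgeR. Among these fits, the highest counts came without an 8-week knockout library and the lowest counts for age without a 3-week knockout library. Each leaves 1 library in its group, which is assumed to vary like the other groups. The cause of the high and low counts was not tested. With a replicate block the counts were 664 higher, 1051 lower and 0 for the interaction. Under that block the knockout call of Sst (adjusted p 0.070) and the wild-type call of Ghrl (0.054) missed the threshold. The numbers did not pair the libraries: same-numbered libraries had correlated deviations of -0.03 between the knockout ages, and from -0.55 to 0.61 over the 6 pairs of groups. Of 125 named genes, 97 were called for age in knockout. All 97 kept their direction in the 8 fits that leave out 1 library and with library totals, and 28 passed in all 8. DESeq2 size factors in edgeR, upper-quartile scaling, no filter on low counts and dropping IDs listed more than once kept the 2 counts within 1.5 times. With 2 libraries a group, changes of 1.5-fold were mostly missed in simulated counts, so a gene not called here may still have changed.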
